A study of Homo sapiens with 6 samples.

Results

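Major histocompatibility complex (MHC) class I molecules show peptides from inside the cell to CD8+ T cells and natural killer cells. The 9 genes described here encode parts of this route and were chosen by name from the 23026 genes of the normalized count table: the heavy chains HLA-B, HLA-C and HLA-E, the light chain B2M, the transporter subunits TAP1 and TAP2, the chaperone TAPBP (tapasin), the proteasome subunit PSMB9 and the peptidase ERAP1. All 9 were present, and all 9 were among the 9697 genes that passed the filter on low counts and were tested.

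Messenger RNA had been sequenced from T98G, a human glioblastoma cell line, in 6 libraries. Of these, 3 came from cells infected with a lentivirus for a control hairpin (shControl 1A, 1B and 1C) and 3 from cells infected with a hairpin against the kinase DYRK1A (shDYRK1A 1A, 1B and 1C). Both groups were selected with puromycin, left to recover without it, and mixed in equal cell numbers with a fixed number of Drosophila Kc167 cells, whose reads set the scale between libraries. The labels give 1 hairpin per group, so that other effects of that hairpin cannot be told apart from those of DYRK1A loss, and they do not say whether the libraries came from separate cultures. The methods of the study state in general that experiments were repeated independently, without naming these libraries, so that p-values measure the spread between these libraries, which may be partly technical.

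In the class I route, proteasomes cut cytosolic proteins into peptides, and PSMB9 takes the place of the constitutive subunit PSMB6 in the interferon-induced immunoproteasome. TAP1 and TAP2 pair to carry peptides into the endoplasmic reticulum, where ERAP1 trims them. Tapasin holds the empty heavy chain with its light chain B2M at the transporter until a peptide fits. HLA-B and HLA-C are classical heavy chains, and HLA-E presents mainly leader peptides of other class I chains to receptors of natural killer cells. Glioma cells, like most nucleated cells, carry class I molecules, and the genes respond to interferon gamma.

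Library depth was 33708297 to 42154438 human gene counts, and the spike-in size factors ran from 0.821 to 1.21. DYRK1A itself had 2227, 2234 and 1895 spike-in normalized counts in shControl and 1482, 1056 and 1285 in shDYRK1A (log2 fold change -0.73, adjusted p = 5.33e-06, edgeR quasi-likelihood test). On this scale the median log2 fold change of all genes tested was -0.40, so that the fall of DYRK1A relative to other genes was smaller. Of the 7 glial and glioblastoma markers, VIM (1530 to 1975 CPM, counts scaled to the library total) and CD44 (1401 to 1591 CPM) were high, while GFAP (0 to 4 reads), SOX2 (0 to 2 reads) and S100B (0 reads in all 6 libraries) were near or at 0. Leukocyte markers, which would mark another source of class I transcripts, summed to 4.58 to 5.57 CPM in shControl and 5.59 to 5.81 CPM in shDYRK1A. Most of this was ITGAM (151 to 211 reads), with CD14 at 18 to 54 reads, PTPRC at 0 to 6, and CD3E and AIF1 at 0. The spike-in refers counts to cells, and fewer cells and less RNA per cell cannot be told apart in these bulk samples.

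Of the 9 genes, 7 lie on chromosome 6 in the MHC region, B2M on chromosome 15 and ERAP1 on chromosome 5 (GRCh38). TAP1 and PSMB9 are neighbours transcribed away from each other, with RefSeq starts 488 bases apart. Promoter windows of 250 bases before to 50 bases after the start (RefSeq, GRCh38.p14) were found for 8 of the 9 genes, HLA-E being the exception. The stretches below are shown because they hold short motifs known from class I promoters, which are in capitals: GAAANNGAA or GAANNGAAA (interferon response type), GGGGATT (kappaB type), TGACG (cyclic AMP response type) and CCAAT, each searched on both strands. The first 2 forms overlap each other where the repeat goes on, as in TAP2.
HLA-B, chr6:31357220-31357369, minus strand: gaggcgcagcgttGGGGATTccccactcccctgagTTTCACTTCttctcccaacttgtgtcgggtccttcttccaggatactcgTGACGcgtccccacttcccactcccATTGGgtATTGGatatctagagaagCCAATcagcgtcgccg
HLA-C, chr6:31272133-31272279, minus strand: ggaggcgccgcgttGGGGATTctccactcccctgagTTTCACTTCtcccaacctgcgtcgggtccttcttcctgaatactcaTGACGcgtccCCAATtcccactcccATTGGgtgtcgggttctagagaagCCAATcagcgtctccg
B2M, chr15:44711357-44711476, plus strand: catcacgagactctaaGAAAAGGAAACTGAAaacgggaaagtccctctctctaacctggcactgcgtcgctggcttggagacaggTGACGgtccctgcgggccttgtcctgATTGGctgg
TAP1, chr6:32853805-32853854, minus strand: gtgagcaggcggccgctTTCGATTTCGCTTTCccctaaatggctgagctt
TAP2, chr6:32838765-32838814, minus strand: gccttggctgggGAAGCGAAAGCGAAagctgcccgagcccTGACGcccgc
TAPBP, chr6:33314079-33314143, minus strand: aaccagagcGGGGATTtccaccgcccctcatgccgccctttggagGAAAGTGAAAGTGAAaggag
PSMB9, chr6:32854022-32854071, plus strand: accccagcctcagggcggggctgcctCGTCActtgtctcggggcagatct

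HLA-B and HLA-C held the kappaB, interferon and cyclic AMP letters in the same order, starting 177, 155 and 106 bases before the start in HLA-B and 173, 151 and 105 bases before it in HLA-C. CCAAT letters followed in both, and HLA-C held a further match 192 bases before the start, ahead of the kappaB letters and outside the stretch shown. An interferon response form was found for 7 genes, HLA-B, HLA-C, B2M, TAP1, TAP2, TAPBP and ERAP1, in 8 of the 10 windows (TAP1 and ERAP1 have 2 windows each), and was present in 14.5% of all 35116 RefSeq windows. The PSMB9 window did not hold it. GGGGATT was found in HLA-B, HLA-C and TAPBP (3.55% of all windows), TGACG in HLA-B, HLA-C, B2M, TAP2 and PSMB9 (24.6%), and CCAAT in HLA-B, HLA-C, B2M, TAP1, PSMB9 and ERAP1 (34.6%). The palindrome TCTCGCGAGA, known from promoters that DYRK1A occupies, was in 0 of the 10 windows and in 0.424% of all windows. These are letter matches and were not tested for binding.

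The 9 genes covered a wide range of levels. Per kilobase of principal transcript, B2M was the most abundant in shControl, with 29171 ± 3390 spike-in normalized counts (SD, n = 3), placing it 94th among 9378 tested genes with an annotated principal transcript. HLA-C (15190 ± 1293) and HLA-B (11705 ± 1021) followed, then TAPBP (4297 ± 333), PSMB9 (3987 ± 441), HLA-E (3165 ± 263), TAP1 (1130 ± 78.4), TAP2 (672 ± 75.0) and ERAP1 (635 ± 67.7). The order of the means was the same in shDYRK1A except at its end, where ERAP1 (729 ± 126) stood above TAP2 (551 ± 44.1). Ranges overlapped between TAPBP and PSMB9 in shControl and between TAP2 and ERAP1 in both groups. No other neighbours in the order overlapped. The ratio of mean HLA-C to mean HLA-B was 1.30 in shControl and 1.08 in shDYRK1A. HLA-B and HLA-C share 35 exonic bases on 1 strand in the annotation, and 32.3% of the TAP2 exonic bases lie in AL669918.1 on the same strand. Reads that the counter could not place in 1 gene were left out by the authors, so that counts of these genes may be too low.

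**Figure D1:**
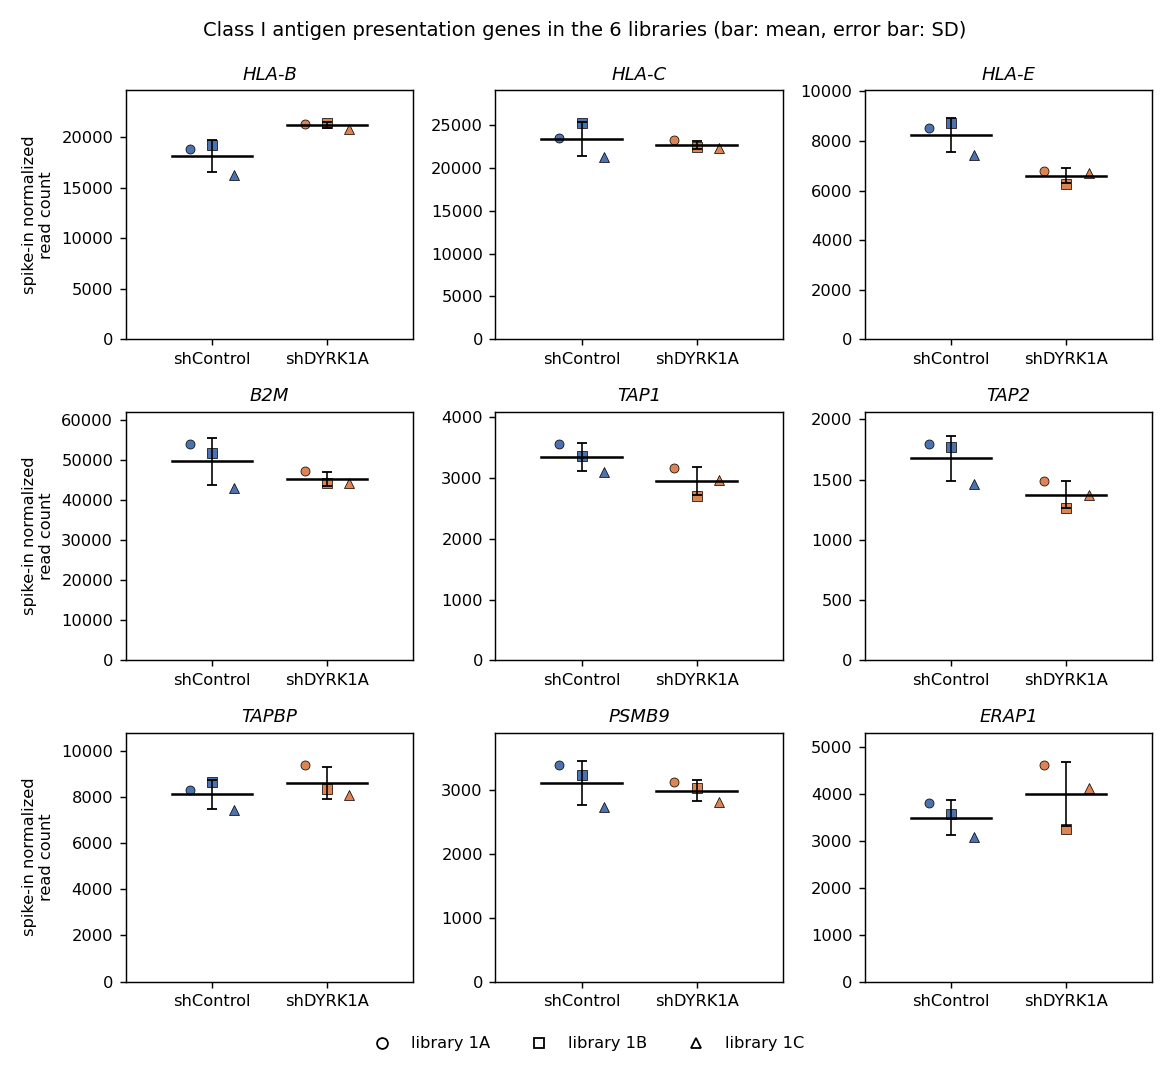
Spike-in normalized read counts (vertical axes, from 0) of the 9 genes in the 3 shControl and 3 shDYRK1A libraries, with marker shapes for libraries 1A, 1B and 1C, bars for means and error bars for SD. HLA-B lies higher in all 3 shDYRK1A libraries, HLA-E lies lower, and the groups overlap for the other 7 genes.

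The comparison asks how transcript levels per cell differed after DYRK1A silencing. On the spike-in scale 1 of the 9 genes, HLA-E, fell and none rose at an adjusted p below 0.05 (edgeR quasi-likelihood test, Benjamini-Hochberg over 9697 genes), whereas 63.4% of all genes tested were called lower and 1.08% higher. The median log2 fold change was -0.06 over the 9 genes and -0.40 over all genes tested. With 1 library left out in turn the median of the 9 genes ran from -0.15 (without shControl 1C) to -0.031 (without shDYRK1A 1C). That of all genes tested ran from -0.48 (without shControl 1C) to -0.34 (without shDYRK1A 1B). At an unadjusted p below 0.05 the counts were also 1 lower and 0 higher. The DESeq2 Wald test called 2 lower (HLA-E and TAP2) and 1 higher (HLA-B), where 6607 of the 9697 genes were called lower and 126 higher. With the study's further threshold of 0.7 on the log2 fold change, none of the 9 genes was called in either direction, against 14.3% of all genes lower and 0.278% higher. With TMM scaling, described below, 0 of the 9 exceeded that size either, and 187 of the 9697 genes were called lower and 121 higher past it.

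TMM scaling, which sets the bulk of the human genes level between libraries, moved the median of all genes to 0.00, a shift of 0.40. On that scale 7 of the 9 genes rose and none fell (0 also at an unadjusted p below 0.05), where 27.3% of all genes were called higher and 28.6% lower, and the median of the 9 genes was 0.35. HLA-E and TAP2 did not pass. The sign of HLA-C, HLA-E, B2M, TAP1, TAP2 and PSMB9 therefore depended on the scale, while HLA-B, TAPBP and ERAP1 had positive fold changes on both. Every one of the 9 genes lay above the median of all genes on either scale. The spike-in scale is the one the authors used, and no value here tells which scale is nearer the truth.

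**Figure D2:**
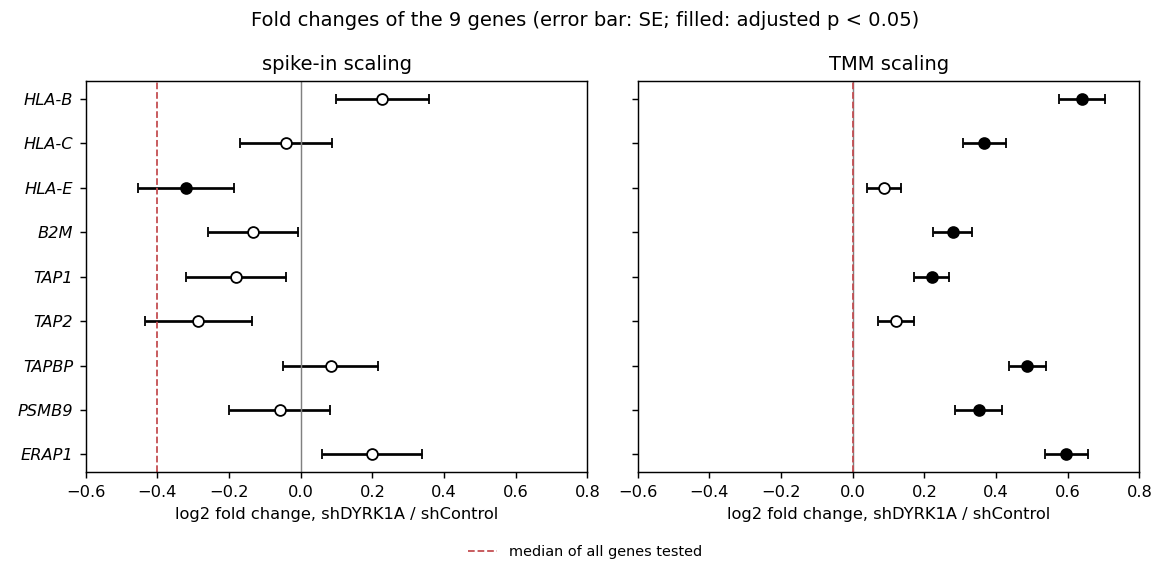
Log2 fold changes of shDYRK1A over shControl (horizontal axes) for the 9 genes with spike-in scaling (left) and TMM scaling (right), n = 3 per group, with standard errors, filled points for adjusted p below 0.05 and a dashed line for the median of all genes tested. With spike-in scaling the points run from -0.32 (HLA-E) to 0.23 (HLA-B) all above a line at -0.40 for all genes, and with TMM scaling from 0.09 to 0.64, all above a line at 0.00.

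Among the heavy chains, HLA-B had the highest fold change of the 9 genes. Its spike-in normalized count was 18800 in shControl 1A, 19224 in 1B and 16300 in 1C, and 21336 in shDYRK1A 1A, 21429 in 1B and 20824 in 1C. Values of the other genes are given in the same order of libraries. Every shDYRK1A library was above every shControl library, a pattern that 1.59% of the genes tested shared, although the difference missed the threshold (log2 fold change 0.23 ± 0.13 SE, adjusted p = 0.109). As a share of all human gene reads, HLA-B stood at 391, 402 and 406 CPM in shControl and 582, 686 and 625 CPM in shDYRK1A. With TMM scaling it rose by a log2 fold change of 0.64 ± 0.06 (adjusted p = 1.01e-05), above 98.3% of the genes tested.

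HLA-C, the neighbour of HLA-B, had 23474, 25242 and 21278 spike-in normalized counts in shControl and 23254, 22406 and 22354 in shDYRK1A. The groups overlapped (log2 fold change -0.04 ± 0.13, adjusted p = 0.779). Its share of human reads was 488, 528 and 530 CPM in shControl and 634, 717 and 671 CPM in shDYRK1A, with no overlap, and with TMM scaling it rose by 0.37 ± 0.06 (adjusted p = 0.00034).

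HLA-E, the nonclassical chain, had 8512, 8731 and 7450 spike-in normalized counts in shControl and 6806, 6247 and 6725 in shDYRK1A. All shDYRK1A libraries were below all shControl libraries, as for 63.6% of the genes tested, and the log2 fold change was -0.32 ± 0.13 (adjusted p = 0.0286). The call was lost without shControl 1A (-0.30, adjusted p = 0.123), shControl 1B (-0.28, adjusted p = 0.148), shDYRK1A 1B (-0.28, adjusted p = 0.0884) or shDYRK1A 1C (-0.33, adjusted p = 0.105). In those fits 4049 to 4665 of the 9697 genes tested were called lower, against 6145 with all libraries. The fold change of HLA-E stayed between -0.39 and -0.28 whichever library was left out. In CPM the groups overlapped, at 177, 183 and 186 in shControl and 186, 200 and 202 in shDYRK1A, and with TMM scaling the fold change was 0.09 ± 0.05 (adjusted p = 0.144).

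The makeup of the heavy chain reads can be read within a library, with no scale between libraries. Of the summed counts of HLA-B, HLA-C and HLA-E, HLA-B made up 37.0%, 36.1% and 36.2% in shControl and 41.5%, 42.8% and 41.7% in shDYRK1A. HLA-C made up 46.2%, 47.4% and 47.3% in shControl and 45.2%, 44.7% and 44.8% in shDYRK1A. HLA-E made up 16.8%, 16.4% and 16.5% in shControl and 13.2%, 12.5% and 13.5% in shDYRK1A. The mean HLA-B share was thus 5.56 percentage points higher and the mean HLA-E share 0.788-fold that of shControl, and the groups did not overlap for any of the 3 genes (two-sided exact permutation test, p = 0.1 each, the smallest that 3 libraries against 3 allow). The 3 shares add up to the whole, so they are not independent of each other.

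Between single chains, the log2 ratio of HLA-E to HLA-B was -1.14 ± 0.01 (SD, n = 3) in shControl and -1.69 ± 0.08 in shDYRK1A, and that of HLA-B to HLA-C was -0.37 ± 0.04 and -0.10 ± 0.03, without overlap (exact permutation p = 0.1 each). The family of values compared within libraries by exact permutation tests had 11 members, each with an exact p of 0.1 and a Benjamini-Hochberg adjusted value of 0.1. The 3 heavy chain shares and 4 of the ratios were added after seeing the data. These ratios were HLA-E to HLA-B, HLA-B to HLA-C, TAPBP to CANX and ERAP1 to ERAP2. Heavy chain alleles vary between people, and reads that the counter could not place in 1 gene were left out by the authors; how many came from these genes was not analysed here.

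**Figure D3:**
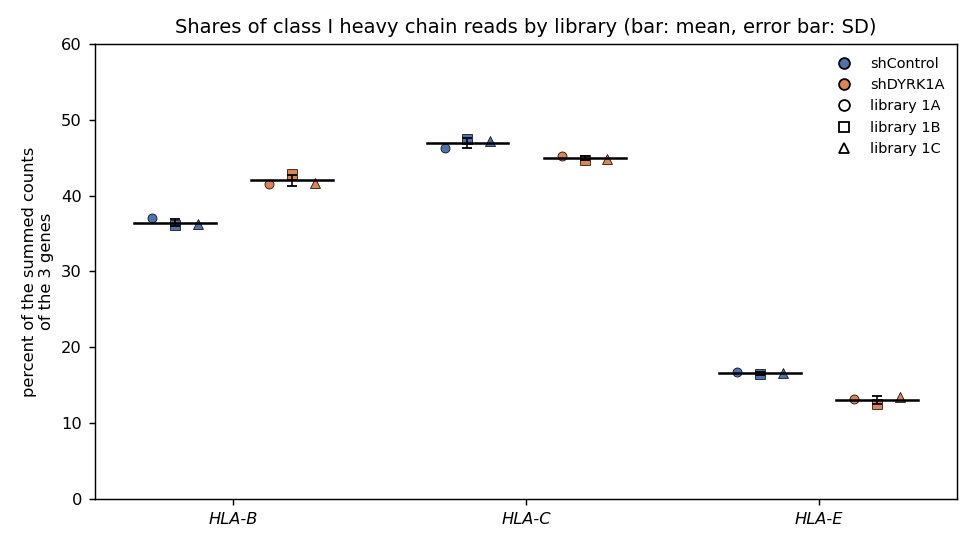
Share of each heavy chain gene in the summed read counts of HLA-B, HLA-C and HLA-E (vertical axis, percent, from 0) in the 6 libraries, with means and SD. The HLA-B share lies at 41.5% to 42.8% in shDYRK1A above 36.1% to 37.0% in shControl, and the HLA-C and HLA-E shares of shDYRK1A lie below those of shControl.

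B2M, the light chain that every class I heavy chain needs at the cell surface, had 54103, 51926 and 43182 spike-in normalized counts in shControl and 47362, 44363 and 44336 in shDYRK1A. The groups overlapped (log2 fold change -0.13 ± 0.13, adjusted p = 0.339), shControl 1C being the lowest library of all. Without shControl 1C the fold change was -0.23 and B2M was called lower (adjusted p = 0.029), and without shControl 1A it was -0.068 (adjusted p = 0.708). The median of all genes tested was -0.48 without shControl 1C and -0.36 without shControl 1A. Of the 9697 genes, 7552 and 4049 were called lower in the same fits. In CPM it stood at 1125, 1086 and 1076 in shControl and 1292, 1421 and 1331 in shDYRK1A, and with TMM scaling it rose by 0.28 ± 0.05 (adjusted p = 0.0011). The log2 ratio of B2M to the summed HLA-B, HLA-C and HLA-E was 0.09, -0.03 and -0.06 in shControl and -0.12, -0.17 and -0.17 in shDYRK1A. The ratio was thus lower in every shDYRK1A library (difference -0.15, exact permutation p = 0.1). Against single chains, which are outside the family of 11 values, the difference was -0.36 for HLA-B alone and -0.09 for HLA-C alone (exact permutation p = 0.1 and 0.2). Against HLA-E alone the difference turned to 0.19.

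Neither transporter subunit passed the test on the spike-in scale. TAP1 had 3562, 3366 and 3100 spike-in normalized counts in shControl and 3172, 2707 and 2964 in shDYRK1A (log2 fold change -0.18 ± 0.14, adjusted p = 0.24). TAP2 had 1796, 1775 and 1461 in shControl and 1487, 1267 and 1373 in shDYRK1A (-0.29 ± 0.15, adjusted p = 0.0781). The groups overlapped for both genes. Without shControl 1C TAP2 was called lower (-0.38, adjusted p = 0.0117), as were 7552 of the 9697 genes tested. With TMM scaling TAP1 rose by 0.22 ± 0.05 (adjusted p = 0.0025), and TAP2 had 0.12 ± 0.05 (adjusted p = 0.0593). The log2 ratio of TAP1 to TAP2 was 0.99, 0.92 and 1.08 in shControl and 1.09, 1.10 and 1.11 in shDYRK1A. Its difference of 0.10 (exact permutation p = 0.1) was of about the size of the spread in shControl (SD 0.08) and was 0.06 without shControl 1B.

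TAPBP (tapasin) had 8297, 8629 and 7413 spike-in normalized counts in shControl and 9367, 8326 and 8087 in shDYRK1A. The groups overlapped (log2 fold change 0.08 ± 0.13, adjusted p = 0.578), with shDYRK1A 1A the highest of the 6 libraries. The fold change was 0.017 without shDYRK1A 1A, 0.022 without shControl 1C and 0.13 without shControl 1B, none of them past the threshold. Its CPM went from 173, 180 and 185 in shControl to 256, 267 and 243 in shDYRK1A, and with TMM scaling it rose by 0.49 ± 0.05 (adjusted p = 1.38e-05), above 96.1% of the genes tested. The general chaperone CANX (calnexin), which receives heavy chains before tapasin does, fell on both scales (-0.70, adjusted p = 3.5e-07, and -0.30 with TMM scaling). The log2 ratio of TAPBP to CANX was accordingly -2.93 ± 0.05 (SD, n = 3) in shControl and -2.14 ± 0.18 in shDYRK1A, without overlap (exact permutation p = 0.1). This ratio was added after seeing the data. CANX was the only 1 of 6 other genes of peptide loading and quality control that fell with TMM scaling.

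PSMB9, the interferon-inducible catalytic subunit, had 3392, 3231 and 2731 spike-in normalized counts in shControl and 3123, 3039 and 2815 in shDYRK1A. The groups overlapped (log2 fold change -0.06 ± 0.14, adjusted p = 0.711). PSMB6, which it replaces, fell from 12331, 12089 and 10118 to 9649, 9381 and 8655 (log2 fold change -0.32 ± 0.13, adjusted p = 0.0272). The log2 ratio of PSMB9 to PSMB6 was -1.86, -1.90 and -1.89 in shControl and -1.63, -1.63 and -1.62 in shDYRK1A. This difference of 0.26 was larger than the SD of 0.02 in shControl, the groups did not overlap, and leaving out any library gave 0.25 to 0.27 (exact permutation p = 0.1). With TMM scaling PSMB9 rose by 0.35 ± 0.07 (adjusted p = 0.00082), while PSMB6 had 0.09 (adjusted p = 0.223).

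ERAP1, the trimming peptidase, varied more between shDYRK1A libraries, relative to its mean, than the other 8 genes. It had 3814, 3576 and 3084 spike-in normalized counts in shControl and 4617, 3257 and 4140 in shDYRK1A. Libraries 1A and 1C of shDYRK1A were above all of shControl and 1B was within its range (log2 fold change 0.20 ± 0.14, adjusted p = 0.194), and the value varied with the library left out. Without shDYRK1A 1B the fold change was 0.33 (adjusted p = 0.0494), without shDYRK1A 1A it was 0.084 (adjusted p = 0.622), and without shControl 1C it was 0.12 (adjusted p = 0.393). In the fit without shDYRK1A 1B, 114 of the 9697 genes tested were called higher. In CPM it stood at 79.3, 74.7 and 76.9 in shControl and 126, 104 and 124 in shDYRK1A, and with TMM scaling it rose by 0.60 ± 0.06 (adjusted p = 1.04e-05). The related peptidase ERAP2 had -0.28 on the spike-in scale (adjusted p = 0.0569). The log2 ratio of ERAP1 to ERAP2, also added after seeing the data, was -1.18 ± 0.01 (SD, n = 3) in shControl and -0.71 ± 0.07 in shDYRK1A, without overlap (exact permutation p = 0.1).

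**Figure D4:**
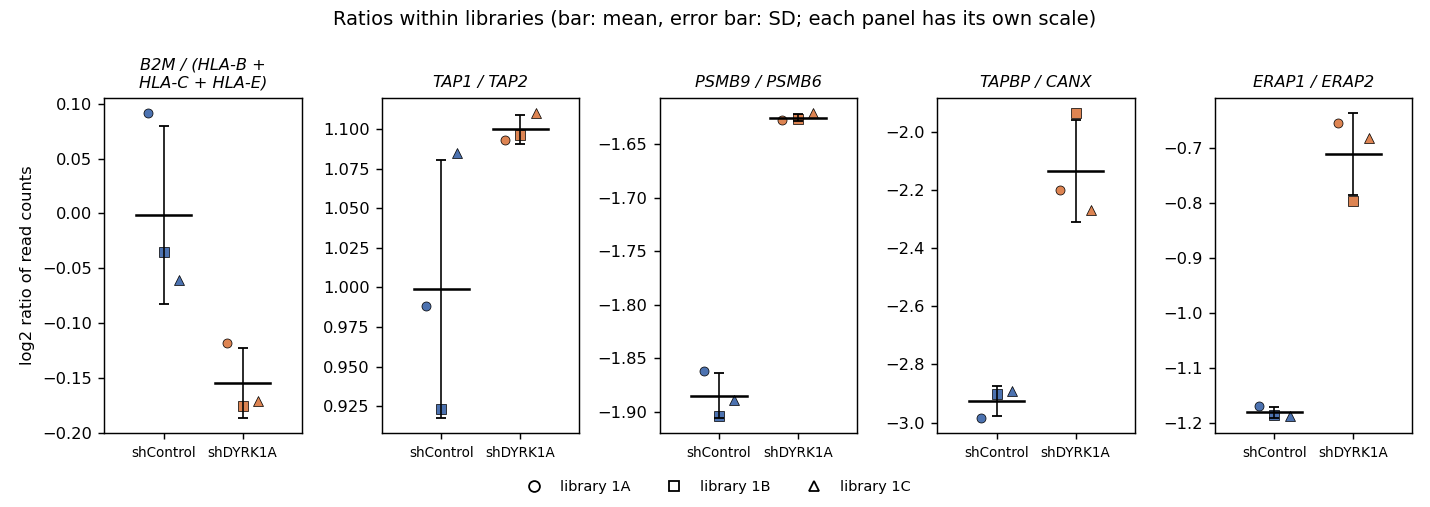
Log2 ratios of read counts within each library (vertical axes, each panel with its own scale) for 5 pairs, in 3 shControl and 3 shDYRK1A libraries with means and SD. The PSMB9 to PSMB6 ratio lies at -1.90 to -1.86 in shControl and at -1.63 to -1.62 in shDYRK1A, while the TAP1 to TAP2 ratio of shControl 1C (1.08) comes close to shDYRK1A (1.09 to 1.11).

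Taken as 1 sum, the 9 genes made up 0.261%, 0.263% and 0.264% of human gene counts in shControl and 0.329%, 0.362% and 0.341% in shDYRK1A, a share 1.31-fold as large. A share of human reads is not an amount per cell. On the spike-in scale the median log2 fold change of the 9 genes was -0.06. B2M gave 40.3% of that sum. Counting error was small beside this difference (95% Wilson intervals from 0.260% to 0.266% over the shControl libraries and from 0.327% to 0.364% over the shDYRK1A libraries), and such intervals cover counting error only. The groups did not overlap (exact permutation p = 0.1), also without B2M or without the reads of the mitochondrial genome. On the TMM scale the groups of 8 genes, all but HLA-E, did not overlap and were higher in shDYRK1A, as for 30.7% of the genes tested, with 0 of the 9 separated in the lower direction against 32.5%.

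The rest of the class I route was read from 8 lists of 58 genes, of which 53 were in the table and 48 were tested. With spike-in scaling 24 of the 48 fell, 3 rose and 21 did not pass, with a median of -0.30, and with TMM scaling 6 fell, 23 rose and 19 did not pass. Of all genes tested, 63.4% were called lower and 1.08% higher with spike-in scaling, and 28.6% and 27.3% with TMM scaling, and the counts of each list below stand against the same shares. The 3 that rose were the class I chain HLA-F (0.55, adjusted p = 0.0015), the metabolite-presenting class I-like chain MR1 (0.60, adjusted p = 0.00019) and TAPBPL, a tapasin-related peptide editor (0.72, adjusted p = 1.67e-05). They had higher fold changes than any of the 9 genes and rose with TMM scaling too, at 0.95 for HLA-F and 1.12 for TAPBPL. Where a list below has no gene that rose with spike-in scaling, none did so at an unadjusted p below 0.05 or with the DESeq2 Wald test either.

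Of 7 further heavy and class I-like chains 6 were tested, with a median of 0.21. FCGRT, the neonatal Fc receptor chain, which binds IgG, had the highest level per length of these 6, with 1419, 1529 and 1329 spike-in normalized counts in shControl and 1695, 1688 and 1493 in shDYRK1A (0.19 ± 0.15, adjusted p = 0.246), and HFE, which acts in iron uptake and not in peptide presentation, fell (-0.49, adjusted p = 0.0034). HLA-G was under the filter. Of 6 other genes of peptide loading and quality control, 4 fell. Among them were the lectin chaperones CANX and CALR (-0.38, adjusted p = 0.0058) and the glucosidase subunit GANAB (-0.41, adjusted p = 0.0032). CALR had the highest level per length of the list.

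Of 7 other peptidases 3 fell and none rose with spike-in scaling, and 1 fell and 4 rose with TMM scaling. The values that follow are on the spike-in scale. TPP2, a cytosolic tripeptidyl peptidase, had the lowest value (-0.84, adjusted p = 3.27e-08), followed by LNPEP (-0.47, adjusted p = 0.0025) and LAP3 (-0.40, adjusted p = 0.0091). BLMH had the highest level per length of the list (-0.28, adjusted p = 0.0664). Of the other immunoproteasome subunits and activators, 1 of 5 fell, the nuclear activator PSME3 (-0.31, adjusted p = 0.0355), which was also the most abundant. All 3 constitutive catalytic subunits fell, namely PSMB5 (-0.41, adjusted p = 0.0057), PSMB6 and PSMB7 (-0.38, adjusted p = 0.0092). With TMM scaling 4 of the 5 rose and none of the 3 passed the test, with medians of 0.37 and 0.03.

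Of 13 factors known to act at class I promoters 12 were tested, and 5 fell and none rose with spike-in scaling. With TMM scaling 2 fell and 7 rose. The subunits of the CCAAT-binding factor differed among themselves. NFYA (-0.85, adjusted p = 6.06e-08) and NFYB (-0.69, adjusted p = 2.18e-05) fell on both scales, whereas NFYC had -0.09 (adjusted p = 0.592). NFYC was the highest of the list per length. CREB1 fell by 0.53 on the log2 scale (adjusted p = 0.0016). The class I transactivator NLRC5 had -0.24 (adjusted p = 0.153), and IRF1, an interferon-induced activator, had 0.19 (adjusted p = 0.204) and rose with TMM scaling (0.60, adjusted p = 3.38e-06).

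Of 12 genes of interferon receptors and signalling 9 were tested, of which 7 fell and none rose. The 7 included both chains of the type I receptor, IFNAR1 (-0.59, adjusted p = 0.00015) and IFNAR2 (-0.59, adjusted p = 0.00031), and STAT2 (-0.46, adjusted p = 0.003), and JAK1 was the most abundant (-0.36, adjusted p = 0.0125). With TMM scaling 2 genes of the list fell, IFNAR1 and IFNAR2, and 1 rose. The 5 interferon genes IFNG, IFNB1, IFNL1, IFNL2 and IFNL3 had 0 to 3 reads in any library.

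**Figure D5:**
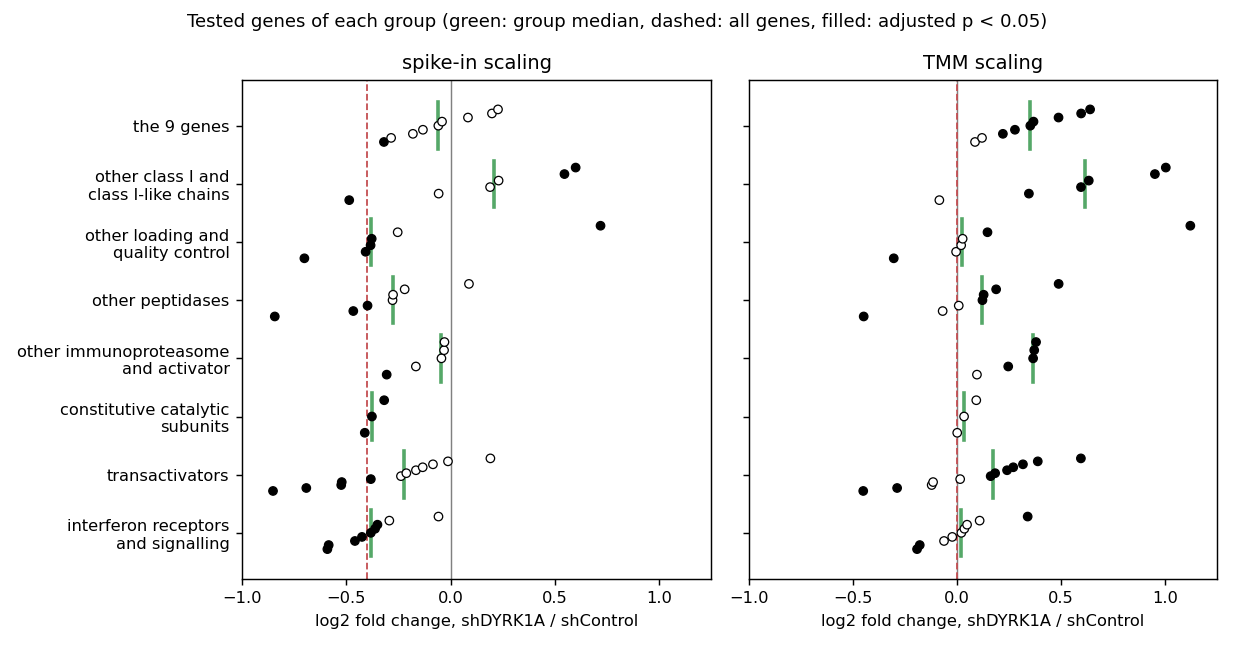
Log2 fold changes of shDYRK1A over shControl (horizontal axes) for each tested gene of the 9 and of 7 further groups of the class I route, n = 3 per group of libraries, with spike-in (left) and TMM scaling (right), filled where the adjusted p was below 0.05, with group medians in green and the median of all genes dashed. The medians of the 9 genes (-0.06), of the other class I and class I-like chains (0.21) and of the other immunoproteasome genes (-0.04) lie to the right of -0.40, and that of the constitutive catalytic subunits (-0.38) lies near it.

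Across the 6 libraries, the mean profile of the 9 genes on the spike-in scale was most like that of PERP, MT-CYB, ATRAID, TMEM173 and GRB2 (Pearson r of 0.998, 0.993, 0.992, 0.992 and 0.992, n = 6 libraries), which had log2 fold changes of -0.09 to -0.06. With TMM scaling the 5 most alike were WDR45B, NRBP1, R3HCC1, ATP5B and MTCH1 (r from 0.9998 for WDR45B to 0.9986 for MTCH1), none of them shared with the first choice. The libraries and their scale are common to all points, so that these are descriptions.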

How the data were processed

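RNA was isolated from T98G cells mixed with Drosophila Kc167 cells, and stranded mRNA libraries were sequenced by the authors as paired-end reads. The authors deposited raw gene counts per library (58174 human identifiers) and a normalized signal for 23026 genes, in which each library's counts are divided by 1 constant from fly reads. Their processing notes name STAR, DESeq2, hg38 and dm3; versions were not given there. A further table of their fold changes and p-values was not used. Unmatched per-sample columns numbered 0, and 95.8% of genes had GENCODE 29 coordinates.

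Counts were tested with edgeR 4.0.16 (R 4.3.3, glmQLFit, robust) with those constants, for 9697 genes with a mean above 10 CPM. SE is the log2 fold change over the square root of F. Library values were compared by exact permutation (scipy 1.17.1). Named beside the 9 genes are DYRK1A, PSMB6, list genes with adjusted p below 0.05 (at most the 3 largest changes per list) or the highest level, and the 5 most alike. HLA-G, ERAP2, NLRC5, IRF1, CIITA, HLA-DPB1, HLA-DMB, ITGAM and CD14 were named after their values were seen. Some genes of the lists are not reported here. The 9 genes and the lists were chosen with earlier results of these data known. The alternatives tried were scaling by TMM or by median of ratios, DESeq2 1.42.0, other filters, a replicate block and leaving out libraries. The fit was tested on simulated data.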

Additional observations from a re-analysis of the deposited data

How the results depend on the processing

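The scale between libraries decided most calls. With TMM scaling the counts of the 9 genes lower and higher were 0 and 7 and their median was 0.35, with median-of-ratios scaling 0, 7 and 0.36, and with a replicate block on the TMM scale 0, 7 and 0.35. In the same order, 2769, 2719 and 2847 of the 9697 genes tested were lower and 2652, 2709 and 2764 higher. The fold changes that changed sign in these 3 fits were 0.37, 0.37 and 0.37 for HLA-C, 0.087, 0.090 and 0.086 for HLA-E, 0.28, 0.28 and 0.28 for B2M, 0.22, 0.22 and 0.22 for TAP1, 0.12, 0.12 and 0.12 for TAP2, and 0.35, 0.36 and 0.35 for PSMB9. The DESeq2 Wald test gave 2 lower and 1 higher, and the threshold of 0.7 gave 0 lower. Of the 9697 genes tested, DESeq2 called 6607 lower and 126 higher, and the threshold of 0.7 left 1386 lower. With each library left out in turn, 0 to 3 of the 9 genes were lower and 0 to 1 higher on the spike-in scale. HLA-E, B2M and TAP2 were lower without shControl 1C, HLA-E also without shDYRK1A 1A, and ERAP1 was higher without shDYRK1A 1B. Over the same fits 4049 (without shControl 1A) to 7552 (without shControl 1C) of the 9697 genes tested were lower, and 69 to 114 higher. The HLA-C fold change ran from -0.10 to 0.019 (without shControl 1B) and that of PSMB9 from -0.15 to 0.0056 (without shControl 1A). On the TMM scale 7 to 8 of the 9 genes were higher, as were 2122 to 2806 of all genes tested. The ratio of B2M to HLA-E alone differed by 0.19. Of the 5 genes most like the 9, 0 were shared between scales. The cause of these changes was not tested.

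The replicate block on the spike-in scale left 1 of the 9 genes lower and 0 higher, and changed no call among them. With that block 5911 of the 9697 genes tested were lower and 98 higher. Same-lettered libraries correlated in their deviations at 0.15, 0.07 and 0.13, so that the letters were not taken as pairs. Even so, 6 of 6 libraries correlated best with their own letter in the other group, a hint from the data and not the design. The filters (filterByExpr, and no filter beyond 1 count) changed no call or sign among the 9 genes. Depth did not limit the 9 genes. With 3 libraries against 3, no exact test could reach a p below 0.1.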

Other observations

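MHC class II molecules, which present peptides from outside the cell to CD4+ T cells, were read from a list of 10 genes, of which 8 were in the table and could be tested with the filterByExpr filter of edgeR on the spike-in scale (added after seeing the data). Of the 8 genes 5 rose, 1 fell and 2 did not pass, and the median log2 fold change was 0.49, against -0.37 for the 17530 genes tested, of which 7745 were called lower and 346 higher. The invariant chain CD74 had 135, 145 and 127 spike-in normalized counts in shControl and 274, 282 and 282 in shDYRK1A (log2 fold change 1.04, adjusted p = 1.59e-06, edgeR quasi-likelihood test). HLA-DRA (0.78, adjusted p = 9.37e-05) and HLA-DRB1 (0.76, adjusted p = 0.00026) rose as well, as did HLA-DMA (0.37, adjusted p = 0.0432), the highest per kilobase of those past the main filter, and HLA-DPB1 (0.17, adjusted p = 0.455) and HLA-DMB (0.34, adjusted p = 0.0725) did not pass. The class II transactivator CIITA had 670, 646 and 605 spike-in normalized counts in shControl and 433, 347 and 458 in shDYRK1A, and fell (-0.63, adjusted p = 0.0005). With TMM scaling 7 of the 8 rose and CIITA fell. The leukocyte markers ITGAM (-0.38, adjusted p = 0.103) and CD14 (0.50, adjusted p = 0.206) did not pass on the spike-in scale. With TMM scaling 1 of these 2 was called higher and 0 lower, where 3323 of the 17530 genes were called higher and 3680 lower. The part of other cells in the class II values was not tested.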
